A study of Mus musculus with 38 samples.

Results

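The 8 genes described here, Nphs1, Magi2, Plce1, Ptpro, Synpo, Podxl, Nes and Wt1, encode proteins that form or maintain the podocyte and its slit diaphragm. They were picked by gene symbol from the 55487 genes of a count table of mouse kidney RNA, and all 8 were found there. The table covered 38 libraries in 10 groups from 3 experiments that asked what excess fibroblast growth factor 23 (FGF23), a hormone that lowers phosphate, does in healthy and diseased kidneys.

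In the first experiment, male C57BL/6JRj mice were immunised with sheep IgG in Freund's adjuvant at 8 weeks of age and given nephrotoxic serum 4 days later, which causes anti-glomerular basement membrane (anti-GBM) disease. Their healthy controls received phosphate-buffered saline, and both arms then received 1 µg of recombinant FGF23 or vehicle intravenously each day for 6 days. The groups held 4 healthy vehicle, 3 healthy FGF23, 4 anti-GBM vehicle and 3 anti-GBM FGF23 mice. In the second, female BALB/c mice received a single dose of Adriamycin, a drug toxic to podocytes, or saline at 8 weeks of age. They were later injected once with 1 µg of FGF23 or vehicle, and each of the 4 groups held 4 mice. Kidneys of both experiments were taken 24 h after the last FGF23 or vehicle injection. Mice of both experiments were killed at 10 weeks of age. The third used precision-cut kidney slices from male DBA/2J mice aged 23 weeks and fed adenine, 4 cultures with vehicle and 4 with FGF23. The labels give 1 h of FGF23 for the slices whereas the study's text gives 24 h, and no slices from disease-free kidneys were included. RNA came from whole pieces of kidney or slice, so fewer podocytes and less RNA per podocyte cannot be told apart.

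Podocytes are the epithelial cells that wrap the glomerular capillaries with interlocking foot processes. The slit diaphragm is the junction that bridges neighbouring foot processes, and nephrin is one of its main components. Loss or mutation of many of these proteins is known to cause proteinuria, and several of the genes are also expressed outside the podocyte: Podxl in endothelium, Nes in mesangial and endothelial cells, and Wt1 in parietal epithelial cells.

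Library totals ranged from 11186925 to 27583911 assigned reads. Every member had at least 92 reads in every library and passed the filter on low counts in each experiment. Levels are given as CPM, the reads of a gene relative to its library's total, scaled over the 38 libraries by the trimmed mean of M-values (TMM). Havcr1 and Lcn2, which rise in injured tubules, served to check the disease labels. Havcr1 was at 168 to 529 CPM in the 7 anti-GBM libraries and 0.883 to 8.76 in the 7 healthy ones, and Lcn2 was also higher in 7 of 7 anti-GBM libraries than in any healthy library. In the Adriamycin experiment these genes did not separate the groups as labelled: Lcn2 exceeded all healthy libraries in 1 of 8 Adriamycin libraries, and Havcr1 went against the direction of injury. Havcr1 was at 34.5 to 84.8 CPM in Adriamycin and 76.3 to 167 in healthy libraries, a log2 fold change of -0.98 (SE 0.20, adjusted p 0.0157 by edgeR).

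Per kilobase of exon, Podxl, the sialomucin podocalyxin that coats the foot process surface, had the highest level of the 8 in each experiment. It stood at 60.6 ± 6.88 CPM per kb (SD, n = 7) in healthy C57BL/6 kidneys and 69.5 ± 5.21 (SD, n = 8) in healthy BALB/c kidneys. Synpo, which encodes the actin-associated protein synaptopodin, came next in both, at 8.89 ± 1.05 and 8.69 ± 0.675 CPM per kb. Plce1, encoding phospholipase C epsilon, had the lowest at 0.716 ± 0.0759 and 1.33 ± 0.128 CPM per kb. Nphs1 itself, the gene of nephrin, stood at 5.93 ± 0.912 and 8.02 ± 0.762 CPM per kb in the same kidneys.

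**Figure D1:**
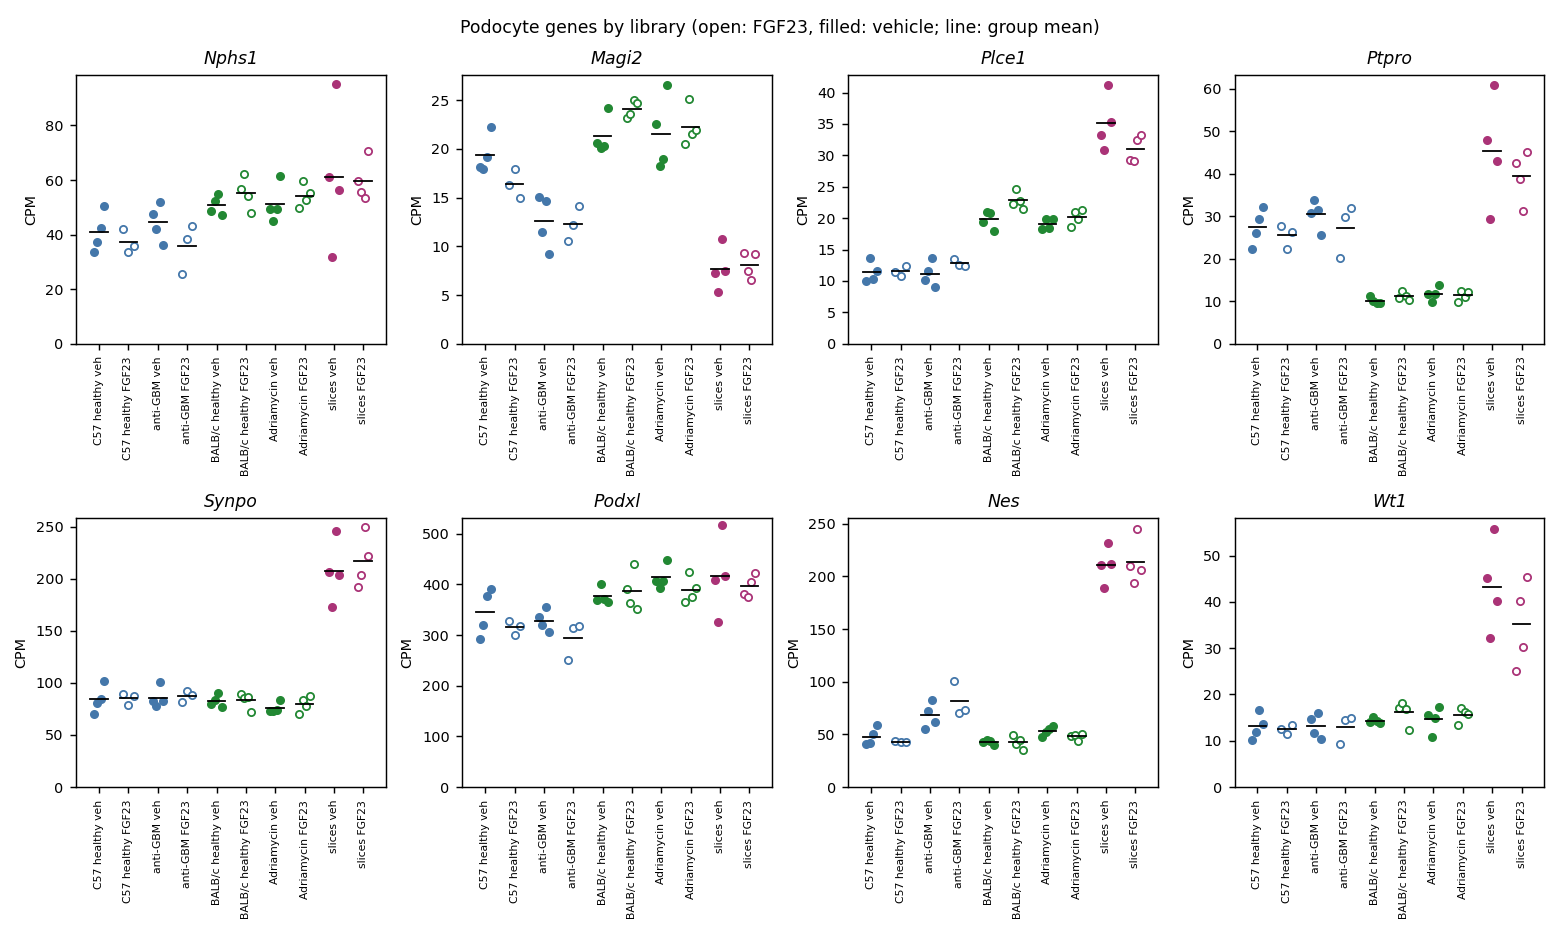
CPM (linear axis from 0) of each of the 8 genes in the 38 libraries, by group. Points are libraries, open for FGF23 and filled for vehicle, and the line is the group mean; Nes lies higher in anti-GBM kidneys than in most healthy ones, Magi2 lies lower, and the slices differ from the kidneys for several genes.

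Anti-GBM disease went with a higher level of Nes and a lower level of Magi2. Nes, which encodes the intermediate filament protein nestin, was at 55.3, 72.6, 82.7 and 61.3 CPM in the 4 anti-GBM vehicle mice and at 101, 69.9 and 72.9 in the 3 given FGF23. In healthy mice it was at 41.2, 41.7, 50.1 and 58.5 CPM with vehicle and at 43.8, 42.3 and 43.1 with FGF23. Of the 7 anti-GBM libraries, 6 lay above every healthy library, and the ranges overlapped through 1 healthy vehicle mouse. Averaged over both treatments, Nes rose by a log2 fold change of 0.71 (SE 0.11), with an adjusted p of 0.000145 by edgeR's quasi-likelihood test.

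Magi2, a scaffold protein that binds nephrin at the slit diaphragm, showed the opposite direction. It was at 15.0, 11.5, 14.6 and 9.24 CPM in anti-GBM vehicle mice and at 10.6, 12.1 and 14.1 in anti-GBM mice given FGF23. Healthy mice had 18.1, 17.9, 19.2 and 22.3 CPM with vehicle and 16.3, 17.9 and 15.0 with FGF23. Again 6 of 7 anti-GBM libraries lay outside the healthy range, here below it. The log2 fold change was -0.51 (SE 0.11), with an adjusted p of 0.00143 by edgeR. In the mice given FGF23 alone it was -0.42 with an adjusted p of 0.073 by edgeR, against -0.61 with an adjusted p of 0.00424 with vehicle alone; over all genes 27.2% were called with FGF23 alone and 39.8% with vehicle alone. A transcript on the same strand, Gm29254, overlaps 1.79% of the Magi2 exons.

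The other 6 members did not pass the test in anti-GBM disease, and for each of them the anti-GBM and healthy libraries overlapped. Groups that did not overlap were found for 0 of the 8 members and for 20.2% of all genes tested. Nphs1 was at 25.7 to 52.0 CPM (median 42.1) in the 7 anti-GBM libraries and 33.6 to 50.3 (median 37.1) in the 7 healthy ones. Its log2 fold change was 0.040, with a 95% interval from -0.22 to 0.30. Wt1, the transcription factor that maintains podocyte identity, differed by 0.043 (-0.25 to 0.34), and Synpo by 0.037 (-0.14 to 0.21). Podxl differed by -0.080 (-0.25 to 0.087), Plce1 by 0.065 (-0.14 to 0.27), and Ptpro, a receptor tyrosine phosphatase of the foot process membrane, by 0.13 (-0.11 to 0.37). None of these intervals reached -1 or 1 on the log2 scale. The 2 called members of 8 compare with 48.3% of the 15859 genes tested that were called in this comparison. The median log2 fold change of the members was 0.042 and that of all tested genes -0.017.

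**Figure D2:**
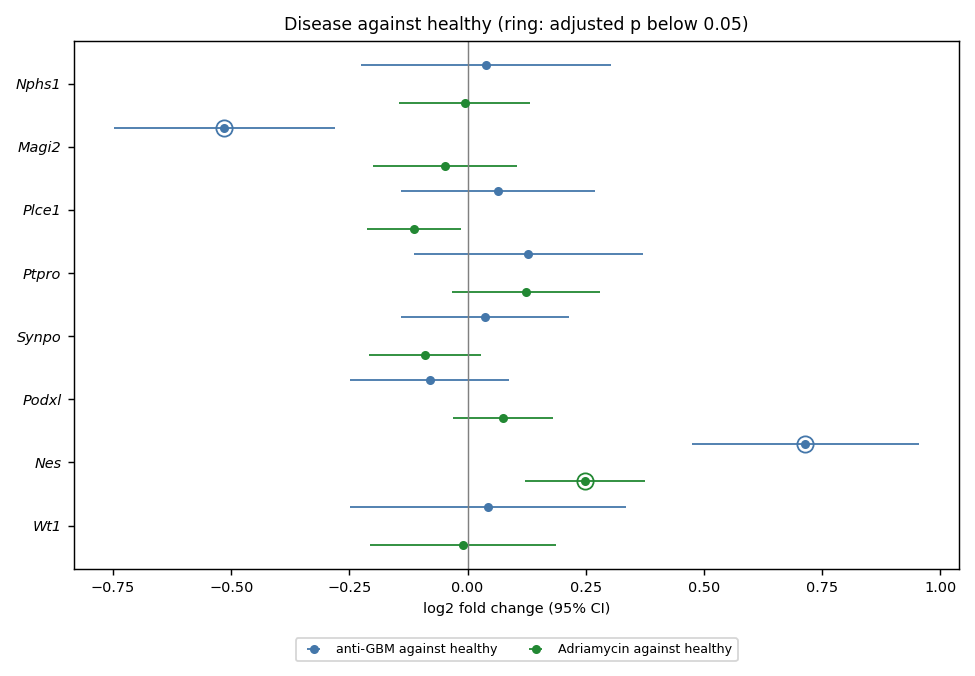
Log2 fold change (points) with 95% confidence intervals (bars) of the 8 genes for anti-GBM disease and Adriamycin nephropathy against healthy mice, averaged over vehicle and FGF23. Rings mark an adjusted p below 0.05: Nes in both models and Magi2 in anti-GBM disease.

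The sequences before annotated start sites of the 2 called genes are shown, though which starts are used in these kidneys was not measured. They are the 250 bases before RefSeq starts (GRCm38.p6, plus strand). Capitals mark matches on either strand to 6 short motifs: GGGCGG (GC box), CAGCTG (an E-box), GTGGGAG (WT1 core), TAATTA (homeodomain core), TGCTGA (MAF recognition core) and TAAACA (forkhead core).
Nes, chr3:87970843-87971092: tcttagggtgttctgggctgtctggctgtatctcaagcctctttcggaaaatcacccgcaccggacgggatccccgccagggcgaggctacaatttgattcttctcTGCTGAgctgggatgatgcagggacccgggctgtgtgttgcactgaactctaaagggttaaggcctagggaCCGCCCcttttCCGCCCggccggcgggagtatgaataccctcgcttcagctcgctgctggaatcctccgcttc
Magi2, first start, chr5:19226796-19227045: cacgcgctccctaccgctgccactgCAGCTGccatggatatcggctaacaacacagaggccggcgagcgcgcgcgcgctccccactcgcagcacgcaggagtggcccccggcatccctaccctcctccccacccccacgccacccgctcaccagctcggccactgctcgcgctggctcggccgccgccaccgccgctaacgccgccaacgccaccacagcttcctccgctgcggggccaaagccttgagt
Magi2, second start, chr5:19907268-19907517: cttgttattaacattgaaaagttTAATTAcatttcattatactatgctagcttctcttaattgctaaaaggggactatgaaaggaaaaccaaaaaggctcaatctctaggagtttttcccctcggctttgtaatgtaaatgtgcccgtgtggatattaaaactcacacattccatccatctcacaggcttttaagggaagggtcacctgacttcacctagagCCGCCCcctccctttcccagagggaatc
The Nes window held 2 GC boxes and 1 MAF recognition core, which occur in 32.7% and 16.1% of the 32851 mouse windows of this length. The first Magi2 window held 1 E-box (13% of windows), and the second 1 GC box and 1 homeodomain core (4.84% of windows). G and C made up 72% of the first Magi2 window and 41.2% of the second, against a median of 52.4% over all windows. These are matches of letters only and say nothing about binding.

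In Adriamycin nephropathy, only Nes passed the test, and by a small margin. It was at 47.7, 52.3, 54.6 and 57.5 CPM in Adriamycin vehicle mice and at 48.8, 49.8, 44.0 and 50.7 with FGF23. Healthy BALB/c mice had 42.4, 44.4, 43.2 and 40.3 CPM with vehicle and 49.3, 41.3, 45.0 and 35.4 with FGF23. Of the 8 Adriamycin libraries, 5 lay above every healthy library. The log2 fold change was 0.25 (SE 0.060), with an adjusted p of 0.0424 by edgeR. The call was lost when 10 of the 16 mice were left out one at a time (log2 fold change 0.21 to 0.29 over the 16 fits), when p-values were adjusted over the study's 3 comparisons together (adjusted p = 0.107), and within each treatment (log2 fold change 0.32 and adjusted p 0.165 with vehicle, 0.18 and 0.407 with FGF23, by edgeR). In this comparison 1.94% of 16020 genes tested were called, and 0.331% and 0.699% within vehicle and FGF23 mice. The Adriamycin and healthy libraries overlapped for all 8 members, and 0.549% of all genes did not overlap.

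The slit diaphragm genes did not pass the test in Adriamycin nephropathy. Nphs1 ranged from 45.0 to 61.4 CPM (median 51.2) in Adriamycin mice and from 47.3 to 62.2 (median 53.3) in healthy mice, a log2 fold change of -0.0058 with an interval from -0.14 to 0.13. For Magi2 the difference was -0.048 (-0.20 to 0.11) and for Wt1 -0.0093 (-0.21 to 0.19). Plce1 had an interval that did not include 0, at -0.11 (-0.21 to -0.014), but its adjusted p was 0.258 by edgeR. Synpo, Podxl and Ptpro differed by -0.090, 0.075 and 0.12.

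The disease effects on Nes and Magi2 differed between the models. Taken as the Adriamycin effect minus the anti-GBM effect, the difference was -0.47 (SE 0.13, adjusted p 0.0044) for Nes and 0.46 (SE 0.13, adjusted p 0.0057) for Magi2 by edgeR. Among vehicle mice alone only Magi2 was called and among FGF23 mice alone only Nes, with 31.4% and 25% of all genes. For Nes the difference was -0.21 with vehicle (adjusted p 0.392 by edgeR) and -0.74 with FGF23 (adjusted p 0.00533). For Magi2 it was 0.61 with vehicle (adjusted p 0.00942 by edgeR) and 0.31 with FGF23 (adjusted p 0.260). No other member passed, against 41.6% of 16954 genes called. The models also differed in strain, sex and length of FGF23 treatment, and their parts in this difference cannot be told apart.

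No member passed the test for FGF23 in any of the 5 comparisons with vehicle. The count of called members was 0 of 8 by edgeR and also by DESeq2 in healthy C57BL/6, anti-GBM, healthy BALB/c and Adriamycin mice and in the slices. Over all genes the called shares were 0%, 0.24%, 0%, 0.0375% and 0% in that order. At an unadjusted p under 0.05 there was 1 member, Plce1 in healthy BALB/c mice. It was at 22.3, 24.7, 22.8 and 21.5 CPM with FGF23 and 19.4, 21.04, 20.8 and 18.03 with vehicle, without overlap (as for 3.08% of all genes), a log2 fold change of 0.21 (SE 0.066, adjusted p 0.688 by edgeR).

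In anti-GBM mice, Nphs1 was at 25.7, 38.5 and 43.2 CPM with FGF23 and 47.7, 42.1, 52.0 and 36.3 with vehicle, a log2 fold change of -0.34 with an interval from -0.72 to 0.034. The lowest value came from the same mouse that had the highest Nes, 101 CPM. Without that mouse the Nphs1 difference was -0.15 and that of Nes moved from 0.23 to 0.051. In the slices, the widest gap was that of Wt1, at 25.1, 40.2, 30.2 and 45.4 CPM with FGF23 and 45.2, 32.1, 55.8 and 40.1 with vehicle (-0.30, interval -0.76 to 0.15). The difference in FGF23 effect between diseased and healthy mice passed the test for no member in either model (0 of 8 by edgeR and DESeq2, 0 at an unadjusted p under 0.05, against 0.0315% and 0% of all genes).

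**Figure D3:**
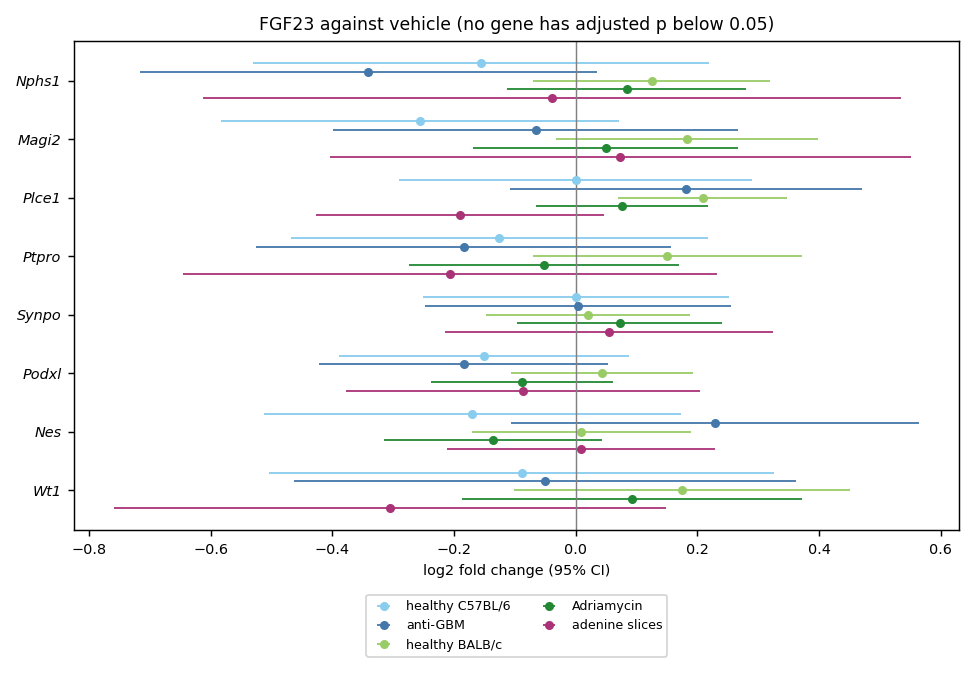
Log2 fold change of FGF23 against vehicle (points) with 95% confidence intervals (bars) for the 8 genes in 5 settings. All intervals but that of Plce1 in healthy BALB/c mice include 0, and no gene has an adjusted p below 0.05.

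Some members stood at different levels in the 3 experiments. Ptpro was at 22.3 to 32.2 CPM in healthy C57BL/6 kidneys and 9.54 to 12.5 in healthy BALB/c kidneys, a ratio of means of 2.5 without overlap. Plce1 went the other way, 10.1 to 13.6 against 18.03 to 24.7 CPM. The remaining 6 members overlapped between these healthy groups, and 25.5% of the 13974 genes that passed the filter in all 3 experiments did not. Strain, sex and the injections given change together between these experiments and cannot be told apart, and no test was made.

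In the slices, Wt1, Synpo, Plce1 and Nes lay above every kidney library of the other experiments, as did 20.2% of those genes. Nes was at 189 to 245 CPM in the 8 cultures, 4.63 times the mean of healthy C57BL/6 kidneys and 4.97 times that of healthy BALB/c kidneys. Magi2 was lower instead, at 5.27 to 10.8 CPM, or 0.437 and 0.348 times those means, and overlapped the anti-GBM libraries (9.24 to 15.0 CPM). Nphs1, Podxl and Ptpro overlapped the kidney libraries. The order of group means for Magi2 ran from healthy BALB/c with FGF23 (24.1 CPM) through the Adriamycin, C57BL/6 and anti-GBM groups to the slices (8.12 and 7.70), and neighbours overlapped within each experiment except vehicle and FGF23 healthy C57BL/6. The summed CPM of 10 proximal tubule genes was 379 to 1040 in the slices and 10824 to 44311 in the kidneys, and the part of this in the levels was not tested. The slices also differ from the kidneys in strain, age, disease and culture. These change together and cannot be told apart, and no test between slices and kidneys was made.

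The other podocyte genes gave a mixed picture. Of 79 other listed podocyte genes 77 were tested. In anti-GBM disease 31 rose, 17 fell and 29 did not pass, with a median log2 fold change of 0.13. The called share was 62.3%, beside 48.3% of all genes tested. The genes that fell furthest were Zbtb20 and Nr3c1, a transcription factor and the glucocorticoid receptor, at -0.92 and -0.61, and Ddn, encoding dendrin, at -0.60. Those that rose furthest were Anln, encoding the actin-binding protein anillin, which also acts in cell division (1.90), Ptgds, a prostaglandin D synthase (1.72), and R3hdml (1.68). In Adriamycin nephropathy 1 of 77 passed (1.3%, beside 1.94% of all genes), Cdkn1c, a cell cycle inhibitor kept on in mature podocytes, at 0.51 (adjusted p 0.000821 by edgeR), and it rose in anti-GBM disease too (1.07).

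By role, the genes of basement membrane and adhesion rose most often in anti-GBM disease, with 7 of 10 higher and 2 lower, beside the same 48.3% called over all genes. Col4a3 and Col4a4, collagen chains made by podocytes, were the lower ones at -0.39 and -0.36 (named after their values were seen). Col4a5, a further collagen chain in the same list, was not among the lower genes. Among 15 slit diaphragm genes 6 rose and 3 fell, and among 15 cytoskeletal genes 7 rose and 4 fell. Of 25 surface, secreted and other identity genes 9 rose and 5 fell, and of 12 transcription factors 2 rose and 3 fell. Many of these genes are expressed in other cell types as well.

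**Figure D4:**
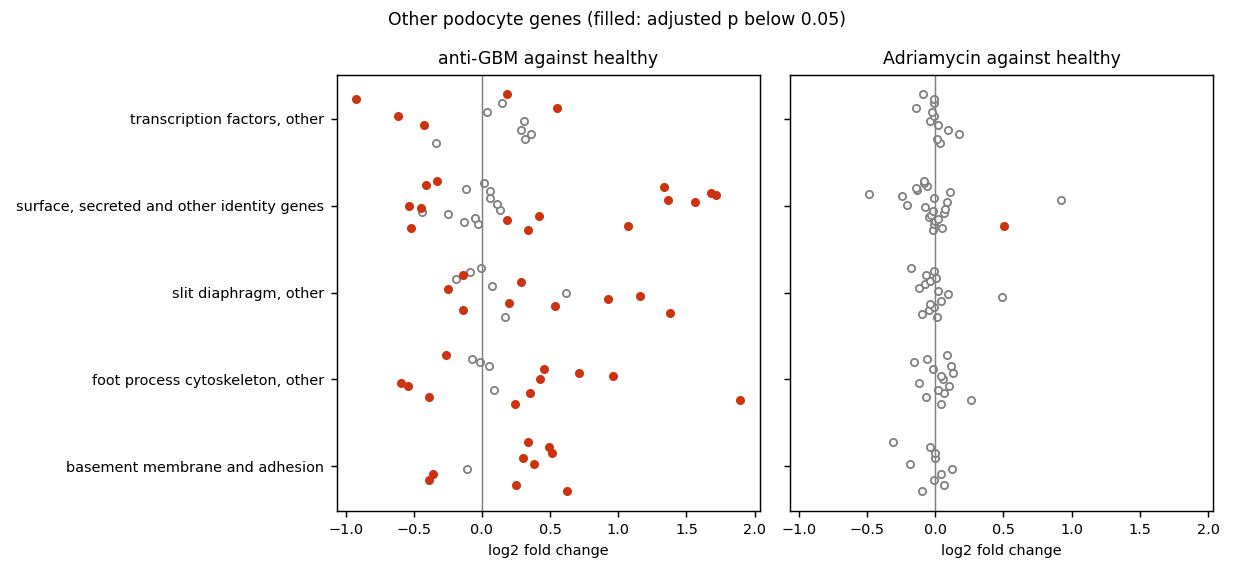
Log2 fold change of the other podocyte genes by role in anti-GBM disease (left) and Adriamycin nephropathy (right) against healthy mice, 77 genes each. Filled points have an adjusted p below 0.05; they spread to both sides in anti-GBM disease, and 1 is filled in Adriamycin nephropathy.

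Markers of other cells moved in the same anti-GBM comparison, in which 48.3% of all genes were called. All 6 parietal epithelial genes rose, with a summed level of 247 to 448 CPM in anti-GBM and 135 to 237 in healthy libraries. Of 10 mesangial genes 6 rose and 2 fell, of 12 glomerular endothelial genes 2 rose and 3 fell, and of 9 leukocyte genes 8 rose and 1 fell. All 6 proliferation genes rose, with a median of 2.07 and a summed level of 66.9 to 226 CPM in anti-GBM and 37.2 to 58.1 in healthy libraries. All 8 tubular injury genes rose as well. Pdgfrb, the mesangial receptor, rose by 0.78, Kdr of endothelium changed by -0.60, and Ptprc of leukocytes rose by 1.06. Kdr lay at the low end of its list: the 12 endothelial genes ranged from -0.60 to 1.26, with a median of -0.10. Proximal tubule genes were lower, 8 of 10. No listed marker was at 0 in all libraries of any group. Their part in the changes of Nes, Magi2 and the other podocyte genes, Anln among them, was not tested.

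Within groups the members varied together. For each library the deviation from its group mean on the log2 CPM scale was taken, and the correlations over the 38 libraries are given as a description, since the libraries share 1 scaling. All 28 pairs were positive, with a median Pearson r of 0.59. Nphs1 went with Podxl (0.87) and had a median of 0.76 with its 7 fellow members. Nes followed the others least, with a median of 0.25, and 0.069 within the anti-GBM experiment. Among the genes outside the set whose deviations were most like the mean of the members were Myom2 (0.89), Enpep (0.85), Thsd7a (0.85), Crb2 (0.82), Shisa3 (0.81), Nebl (0.81) and Sema3g (0.80), out of 13966 ranked. The median r with that mean was -0.014 over all ranked genes and 0.22 over the 76 listed podocyte genes ranked. Of the 30 genes most alike, 8 were listed podocyte genes and the rest were not.

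**Figure D5:**
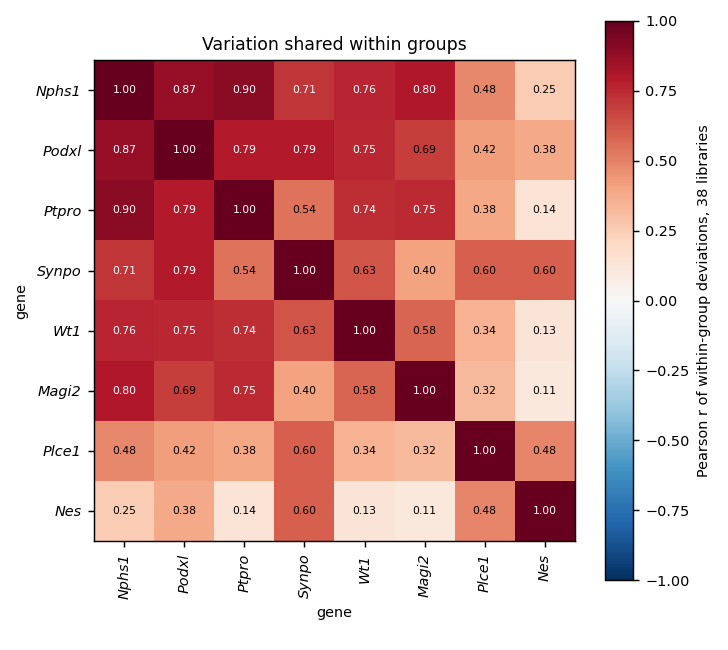
Pearson r between within-group deviations of log2 CPM for the 8 genes over 38 libraries (colour scale -1 to 1). All pairs of members are positive, the Nphs1 and Podxl cell reads 0.87, and the Nes row is the palest.

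In GRCm38 (GENCODE M21), Nphs1 lies on chromosome 7 at 30458315 to 30487223 (plus strand), Magi2 on chromosome 5 at 19227036 to 20704792 (plus), Plce1 on chromosome 19 at 38481109 to 38785030 (plus) and Ptpro on chromosome 6 at 137252319 to 137463233 (plus). Synpo lies on chromosome 18 at 60593973 to 60660142 (minus), Podxl on chromosome 6 at 31519488 to 31563981 (minus), Nes on chromosome 3 at 87971078 to 87980451 (plus) and Wt1 on chromosome 2 at 105126529 to 105173616 (plus). An antisense gene, Nphs1os, overlaps 9.02% of the Nphs1 exons, and the strand setting of the counting is not given in the sources used here.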

How the data were processed

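Bulk RNA was sequenced from 38 libraries. The authors aligned 58 bp paired reads to GRCm38 with STAR 2.7.9a and counted them with featureCounts 1.5.1 (versions per the submitters' processing notes); the deposited values are raw counts per gene. How reads mapping to several places were treated is not given in the sources used here.

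The column names of the slice libraries match the GEO titles. Those of the mouse libraries name a mouse number only, so each was linked to its group by that number through the header of the study's supplementary count table, where the column 14_NTS4 is mouse 14. Every result on mice rests on this link. No label number could be attached to a single mouse column. For the slices, a short group label in the study's supplement disagrees with the treatment row there, and the GEO titles were followed. Every slice result on FGF23 rests on this choice.

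Counts were fitted per experiment with edgeR 4.0.16 (R 4.3.3; TMM, filterByExpr with a minimum count of 10, glmQLFit and glmQLFTest, 1 mean per group, all groups of the experiment sharing the dispersion), and the difference between models in a joint fit. P-values were adjusted by Benjamini-Hochberg over all genes tested and called below 0.05. Intervals are 95%. Levels used a prior count of 2 where logged. Genes outside the set were named by a fixed rule (the 3 largest called rises and falls in each disease comparison, the 8 most alike, and defining markers of other cell types); 1 gene that the rule names is not reported here. Gene positions were taken from GENCODE M21, and the promoter windows from RefSeq. The code was tested on simulated data. The members and gene lists were chosen with earlier results of these data known. Columns of the study's own comparisons were not used. The replicates are separate mice, and for the slices separate cultures, whose animals the labels do not give; the p-values for slices may reflect technical spread. Alternatives were DESeq2 1.42.0, other scaling, filters, robust fits, a fold change limit of 1, single treatments, combined adjustment and leaving out each library.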

Additional observations from a re-analysis of the deposited data

Results flagged for a closer look

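The disease effect on Nes and Magi2 differed between the models by the test of the difference itself: -0.47 for Nes and 0.46 for Magi2 (log2, Adriamycin minus anti-GBM). These were 2 of 8 members, against 41.6% of all 16954 genes called in the same comparison. Within single treatments, Nes was called only among FGF23 mice and Magi2 only among vehicle mice. Among 64 checks of a member in a group of 4, a library stood apart in 2, and chance flags about 1 in 20 such groups. Synpo was at 83.2 CPM in 1 Adriamycin vehicle mouse and 72.8 to 74.4 in the other three. Magi2 was at 24.2 CPM in 1 healthy BALB/c vehicle mouse and 20.1 to 20.6 in the other three.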

How the results depend on the processing

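Of the members, 2 were called in anti-GBM disease under every scaling, filter and tool and without any 1 mouse (range 2 to 2). With a fold change limit of 1 on the log2 scale the count was 0 in anti-GBM disease, 0 in Adriamycin nephropathy and 0 for the difference between models. Among FGF23 mice alone it was 1 in anti-GBM disease, 0 in Adriamycin nephropathy and 1 for the difference, and among vehicle mice alone 0 in Adriamycin nephropathy and 1 for the difference. With combined adjustment it was 0 in Adriamycin nephropathy. Leaving out 1 mouse gave 0 to 1 called members in Adriamycin nephropathy and 2 to 3 for the difference, where Plce1 joined without NTS8. The call of Nes in Adriamycin nephropathy was lost without any of the 4 healthy vehicle mice, Ad7, Ad8, Ad10, Ad13, Ad14 or Ad16 (adjusted p 0.017 to 0.095 over the 16 fits by edgeR). The FGF23 counts stayed at 0 in all alternatives run. Directions of uncalled members turned in some settings: in anti-GBM disease Nphs1 was -0.053 among FGF23 mice and -0.043 to 0.15 leaving out mice, Wt1 -0.019 to 0.15 leaving out mice, and Plce1 -0.026 among vehicle mice. In Adriamycin nephropathy, vehicle mice alone gave Nphs1 0.015, Wt1 0.032 and Magi2 0.019, and leaving out mice gave -0.053 to 0.026 for Nphs1 and -0.062 to 0.054 for Wt1. The cause was not tested. All 8 genes most like the members were the same with a prior count of 0.5. The mice were separate animals allocated at random to FGF23 or vehicle, so no paired analysis was made for them. For the slices, a fit with the culture number as a replicate block called 0 members; same-numbered cultures had correlations of 0.107, 0.105, -0.105 and 0.112, and 2 of the 4 FGF23 cultures correlated best with their own number. Depth limits Magi2 in the slices most, with 92 reads in the shallowest count.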
